A study of Mus musculus with 6 samples.

Results

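Cadherins are calcium-dependent adhesion proteins that join neighbouring cells at adherens junctions. Inside the cell, classical cadherins bind p120-catenin (*Ctnnd1*), which holds them at the membrane, and beta-catenin (*Ctnnb1*), which recruits alpha-catenin (*Ctnna1*) and through it the actin cytoskeleton. Vascular endothelial cadherin (VE-cadherin, *Cdh5*) is the endothelial member of the family and holds together the capillary wall of the blood-labyrinth barrier. Described here are the 10 genes *Cdh5*, *Cdh2*, *Cdh4*, *Cdh6*, *Cdh10*, *Cdh11*, *Cdh13*, *Ctnnb1*, *Ctnna1* and *Ctnnd1*, taken by gene symbol from the 24421 genes of the deposited count table. They are 7 cadherins and 3 catenins.

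The cells were untreated primary cultures, labelled as endothelial, from the stria vascularis of the cochlea of mice on postnatal days 10 to 12. According to the study's methods, the tissue taken was the stria vascularis together with the spiral ligament. There were 3 cultures from *Nhe6*-knockout mice, which carry a targeted gene disruption, and 3 from wildtype mice, each sequenced as 1 poly(A)-enriched library. The labels give C57BL/6N as the strain background of both genotypes, while the study's methods give C57bl6/j. Cells of several mice were pooled in a culture and purified by fluorescence-activated cell sorting. The p-values weigh the difference between genotypes against the spread between these pooled cultures, not between single mice.

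Gene-assigned reads numbered 25587097 to 29126232 in a library, and 13479 genes had enough reads to be tested. Normalized counts are reads scaled to the mean library size with the TMM factors of edgeR. Fold changes are for *Nhe6*-knockout relative to wildtype, from edgeR's two-sided quasi-likelihood test adjusted after Benjamini and Hochberg across the genes tested, and the threshold was 0.05. *Nhe6*-knockout replicates 1 and 2 were much closer to each other than other libraries, with a chi-square per degree of freedom of 4.91 over genes, against 90.1 to 398 for the other 14 pairs. Wildtype replicate 2 had a score of 71.9 on principal component 1, while the other 5 libraries lay between -18.5 and -5.37. The study gives these as separate cultures, which the counts cannot show. Should *Nhe6*-knockout replicates 1 and 2 share their cells, the independent *Nhe6*-knockout cultures would number 2, and the SDs, p-values and intervals given here, which count 3, would overstate the precision. Values without wildtype replicate 2 are given for all members tested, and for some other genes where a call changed or the value moved.

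Some defining markers of endothelium were at or near 0 in both genotypes, while others on the list had reads. *Cldn5* (claudin-5), *Robo4* and *Sox17* had 0 reads in each library, where a count of 0 allows up to 3 reads, counting error only. *Pecam1* had 5, 1 and 2 reads in *Nhe6*-knockout and 8, 3 and 6 in wildtype replicates 1 to 3, and *Tie1* had reads in 1 library, wildtype replicate 3, with 2. Of 20 listed endothelial markers, 9 passed the filter on low counts. For 6 of the 20, *Emcn*, *Eng*, *Cd34*, *Flt1*, *Tek* and *Egfl7*, the mean over the 6 cultures was at least 100 normalized counts. The summed level of the 20 markers was 16741 to 25745 normalized counts in *Nhe6*-knockout and 10911 to 21161 in wildtype cultures. *Emcn* made up most of this sum in each culture except wildtype replicate 2. The mean reached 100 normalized counts for all 12 listed fibroblast markers, and their sum was 296630 to 307847 in *Nhe6*-knockout and 277187 to 418612 in wildtype cultures. These values did not show the full marker set of endothelium, and the cells are therefore called cultures here.

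Per length of transcript, *Cdh11* was the most abundant of the 10 genes in both genotypes. Levels between genes are compared as normalized counts per kilobase of exon. *Cdh11*, or osteoblast cadherin, a type II cadherin typical of mesenchymal cells, had 9135 ± 3433 normalized counts per kilobase (SD, n = 3) in *Nhe6*-knockout cultures against 7793 ± 2521 (SD, n = 3) in wildtype cultures. The catenins followed in the same order in both genotypes. *Ctnnb1* had 4880 ± 135 per kilobase (SD, n = 3) in *Nhe6*-knockout cultures against 5960 ± 665 (SD, n = 3) in wildtype cultures. *Ctnna1* had 2415 ± 357 and 2583 ± 785, and *Ctnnd1* had 1895 ± 490 and 1840 ± 537. The ranges of *Ctnna1* and *Ctnnd1* overlapped in both genotypes, and those of *Cdh11* and *Ctnnb1* overlapped in wildtype cultures.

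*Cdh5* was the second most abundant of the 7 cadherins in wildtype cultures and the fourth in *Nhe6*-knockout cultures. Among all 10 genes it ranked 5 in wildtype, with 887 ± 324 normalized counts per kilobase (SD, n = 3), and 7 in *Nhe6*-knockout cultures, with 50.1 ± 6.65 (SD, n = 3). In wildtype cultures its range overlapped that of *Ctnnd1* above it and of *Cdh2*, or neural cadherin, below it, which had 446 ± 305 per kilobase (SD, n = 3). In *Nhe6*-knockout cultures it lay below *Cdh6* and above *Cdh10* without overlap. *Cdh6*, a type II cadherin named for the kidney, had 147 ± 14.1 per kilobase (SD, n = 3) there, and *Cdh10*, a type II cadherin best known from neurons, had 14.9 ± 5.22. *Cdh13* and *Cdh4* came last in *Nhe6*-knockout cultures, where the ranges of *Cdh10* and *Cdh13* overlapped, with 14.2 ± 2.87 and 0.533 ± 0.205 per kilobase (SD, n = 3). The order was the same with the length of the longest transcript in place of the exons, while some overlaps changed. *Cdh5* at 44.8 to 58.2 and *Cdh10* at 24.1 to 51.1 per kilobase then overlapped in *Nhe6*-knockout cultures. *Ctnna1* and *Ctnnd1* then did not overlap in either genotype, nor did *Ctnnd1* and *Cdh5* in wildtype cultures, and *Cdh6* and *Cdh13* overlapped in wildtype cultures.

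As a share of the summed level per kilobase of the 7 cadherins, *Cdh5* was 0.640%, 0.702% and 0.299% in *Nhe6*-knockout replicates 1 to 3. In wildtype replicates 1 to 3 it was 9.41%, 12.7% and 7.04%. The lowest wildtype culture was thus above the highest *Nhe6*-knockout culture. *Cdh11* held 89.0% to 91.8% of this sum in *Nhe6*-knockout and 77.9% to 88.7% in wildtype cultures. *Cdh2* held 6.57% to 8.04% and 2.55% to 8.16%, and each of the other 4 cadherins was under *Cdh2* in each culture.

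**Figure D1:**
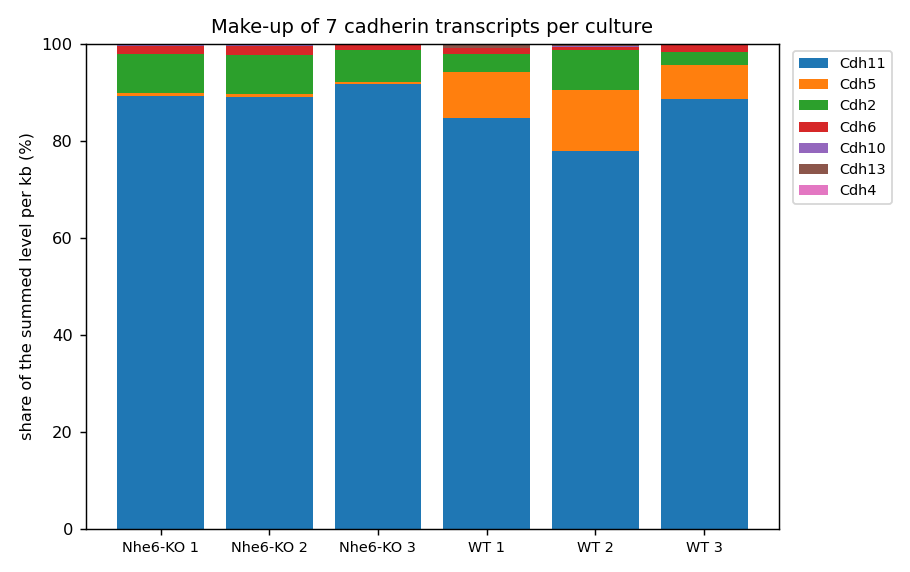
Share of each of 7 cadherin genes (y axis, in percent) in their summed level per kilobase of exon, 1 bar for each of the 3 *Nhe6*-knockout (KO) and 3 wildtype (WT) cultures. *Cdh11* fills 77.9% or more of each bar, and *Cdh5* takes 7.04% to 12.7% in wildtype and at most 0.702% in *Nhe6*-knockout cultures.

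*Cdh5* fell in *Nhe6*-knockout cultures, and it was the member of the set that passed the threshold. The gene lies on chromosome 8 of GRCm38 from 104101625 to 104144511 on the plus strand. Its raw reads were 207, 250 and 189 in *Nhe6*-knockout and 2566, 5039 and 3243 in wildtype replicates 1 to 3. The normalized counts were 220, 232 and 179 against 2509, 5200 and 3470. All *Nhe6*-knockout cultures were below all wildtype cultures, and wildtype replicate 2 was the highest. In the fit, wildtype cultures had 17.7 times the level of *Nhe6*-knockout cultures, with a 95% interval of 10.5 to 29.8. Of all genes tested, 0.0668% passed the threshold, 0.0371% as lower and 0.0297% as higher in *Nhe6*-knockout cultures. In bulk cultures, fewer cells that express a gene and less RNA of it per cell cannot be told apart.

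The direction of *Cdh5* held in each of 14 alternatives, while its adjusted p was under 0.05 in 8 of them. The adjusted p was 0.00548 without wildtype replicate 2, where the log2 fold change was -3.83 (standard error, SE, 0.20) in place of -4.15 (SE 0.31). It was 0.179 without *Nhe6*-knockout replicate 1, 0.179 without replicate 2 and 0.0642 without replicate 3, and 0.103 without wildtype replicate 3. With *Nhe6*-knockout replicates 1 and 2 summed as 1 library, the log2 fold change was -4.20 (SE 0.41, edgeR adjusted p = 0.181), where 0.00731% of all genes tested were called. With the replicate number as a block, 0.0148% were called. An exact two-sided permutation test of the 6 normalized counts gave p = 0.1, the smallest value for 3 cultures against 3.

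None of the 9 endothelial markers tested passed the threshold in edgeR's test. An unadjusted p under 0.05 was found for 2 of them, 1 was called with DESeq2 and 1 without wildtype replicate 2. The shares of all genes tested were 11.8%, 4.69% and 2.88%. Of the 9, 4 had a log2 fold change below 0 and 5 above, and the median was 0.09. *Flt1*, a VEGF receptor, was the marker among the 9 without overlap, at 578, 561 and 378 normalized counts in *Nhe6*-knockout and 920, 3175 and 1150 in wildtype cultures (log2 fold change -1.79, SE 0.50, edgeR adjusted p = 0.242 and 0.0104 from DESeq2). Without wildtype replicate 2 it was -1.04 (SE 0.22, edgeR adjusted p = 0.0725). *Emcn* (endomucin) had 18393, 17408 and 9900 normalized counts in *Nhe6*-knockout and 13413, 410 and 14730 in wildtype replicates 1 to 3. Wildtype replicate 2 was thus the lowest for *Emcn* and the highest for *Cdh5*. *Tek*, an angiopoietin receptor, had 816, 837 and 748 in *Nhe6*-knockout against 189, 1006 and 309 in wildtype cultures, where replicates 1 and 3 were below all *Nhe6*-knockout cultures. The log2 fold change of *Tek* was 0.67 (SE 0.59, edgeR adjusted p = 0.723) with all cultures and 1.68 (SE 0.24, edgeR adjusted p = 0.0342) without wildtype replicate 2. *Erg*, an ETS factor that is known to drive *Cdh5* in endothelium, had 3 to 15 reads per library. The part of endothelial content in the difference of *Cdh5* was not tested.

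**Figure D2:**
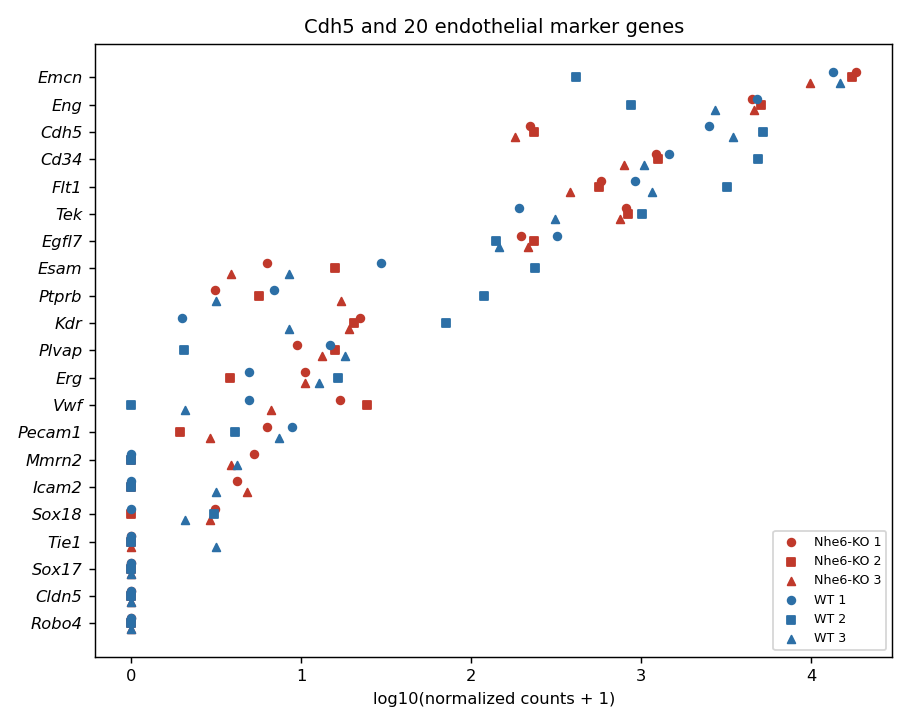
Normalized counts of *Cdh5* and 20 endothelial marker genes on a log10 scale after adding 1 (x axis), with genes ordered by their mean on the y axis and 1 symbol per culture (red, *Nhe6*-knockout; blue, wildtype). The *Cdh5* symbols separate by genotype, *Emcn* is lowest in wildtype replicate 2 at 410, and *Cldn5*, *Robo4* and *Sox17* lie at 0 in all 6 cultures.

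*Cdh13* had lower values in each *Nhe6*-knockout culture, without passing the threshold. It encodes T-cadherin, which is held in the membrane by a lipid anchor, has no cytoplasmic tail for catenins and binds adiponectin. It had 192, 160 and 128 normalized counts in *Nhe6*-knockout and 549, 291 and 290 in wildtype replicates 1 to 3. The genotypes did not overlap, and wildtype replicate 1 stood above the other 2 wildtype cultures. The log2 fold change was -1.24 (SE 0.33, 95% interval -2.02 to -0.45, edgeR adjusted p = 0.212). With the Wald test of DESeq2 the adjusted p was 0.0209, where 4.69% of all genes tested were called, 1.83% as lower and 2.85% as higher. With edgeR it was not under 0.05 when any 1 culture was left out, within a range of 0.0842 to 0.682, and without wildtype replicate 2 the log2 fold change was -1.40. *Cdh13* lies on chromosome 8 from 118283733 to 119324921, 14.2 Mb from the start of *Cdh5*.

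Of the 9 members tested, 3 had no overlap between the genotypes, *Cdh5*, *Cdh13* and *Ctnnb1*, each lower in *Nhe6*-knockout cultures. Among all genes tested, 19.9% had no overlap, 9.57% with all *Nhe6*-knockout cultures lower and 10.3% with all of them higher. The median log2 fold change of the 9 members was 0.04, and that of all genes tested was -0.016. *Cdh4*, or retinal cadherin, was the member below the filter on low counts. It had 3, 6 and 3 reads in *Nhe6*-knockout and 3, 61 and 0 in wildtype replicates 1 to 3, so that most of its reads came from wildtype replicate 2.

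**Figure D3:**
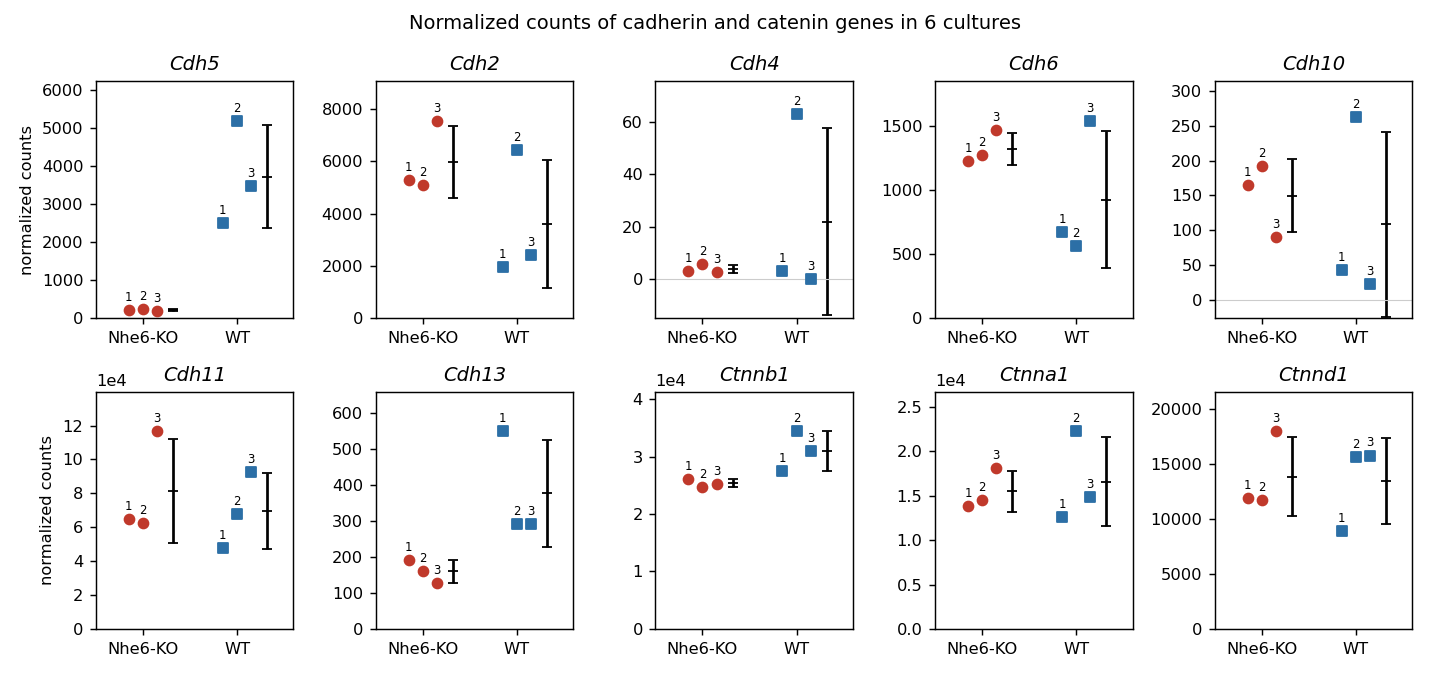
Normalized counts (y axis, a scale for each gene) of the 10 cadherin and catenin genes in *Nhe6*-knockout (KO, circles) and wildtype (WT, squares) cultures, labelled by replicate number, with the mean and SD of the 3 cultures as a bar. *Cdh5*, *Cdh13* and *Ctnnb1* show no overlap between the genotypes, and *Cdh2*, *Cdh4* and *Cdh10* show wildtype replicate 2 far above the other 2 wildtype cultures.

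For *Cdh2* the call depended on wildtype replicate 2. There were 5269, 5111 and 7558 normalized counts in *Nhe6*-knockout and 1953, 6420 and 2416 in wildtype replicates 1 to 3. Wildtype replicates 1 and 3 were below all *Nhe6*-knockout cultures, and replicate 2 was among them. With all 6 cultures the log2 fold change was 0.73 (SE 0.47, 95% interval -0.40 to 1.86, edgeR adjusted p = 0.611). Without wildtype replicate 2 it was 1.45 (SE 0.23, edgeR adjusted p = 0.0368), where 2.88% of all genes tested were called, 1.62% as higher and 1.26% as lower in *Nhe6*-knockout cultures. *Cdh2* is the cadherin of neural and many mesenchymal cells and lies on chromosome 18 from 16588877 to 16809246.

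*Cdh10* also had wildtype replicates 1 and 3 below all *Nhe6*-knockout cultures, with replicate 2 above them, at 165, 192 and 90.9 normalized counts in *Nhe6*-knockout and 42.1, 262 and 22.5 in wildtype replicates 1 to 3. Its log2 fold change was 0.45 (SE 0.90, edgeR adjusted p = 0.888) with all cultures and 2.20 (SE 0.47, adjusted p = 0.0700) without wildtype replicate 2. *Cdh18*, another type II cadherin outside the set, had 339, 303 and 431 normalized counts in *Nhe6*-knockout and 81.2, 1762 and 124 in wildtype replicates 1 to 3. Its log2 fold change was -0.87 (SE 1.11, edgeR adjusted p = 0.817) with all cultures and 1.80 (SE 0.29, adjusted p = 0.0379) without wildtype replicate 2, so that the direction turned.

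*Acta2* and *Col1a1*, from the mural and fibroblast lists, were also highest in wildtype replicate 2, while other genes of these lists were not. *Acta2*, smooth muscle actin, had 16275 normalized counts there, 29.3 and 70.6 in wildtype replicates 1 and 3 and 280 to 1204 in *Nhe6*-knockout cultures. *Col1a1*, a chain of collagen I, had 27187 there, 207 and 213 in wildtype replicates 1 and 3 and 513 to 1228 in *Nhe6*-knockout cultures. No fibroblast or mural marker passed the threshold in edgeR's test, while 2 of each list had an unadjusted p under 0.05 and 1 of each was called with DESeq2. The shares of all genes tested were 11.8% with an unadjusted p under 0.05 and 4.69% called with DESeq2. Of 11 mural markers tested, 5, *Pdgfrb*, *Rgs5*, *Abcc9*, *Notch3* and *Des*, had all *Nhe6*-knockout cultures above all wildtype cultures, replicate 2 included, and the median log2 fold change was 0.59. Of 12 fibroblast markers, 3, *Col3a1*, *Dcn* and *Postn*, had the same order and 1, *Twist1*, the opposite order, and the median was 0.04. Among all genes tested, 10.3% had all *Nhe6*-knockout cultures higher. The summed level of 12 listed mural markers, of which 11 were tested and *Kcnj8* had 0 reads in wildtype replicates 1 and 2, was 35316 in wildtype replicate 2. It was 16349 to 18499 in the other wildtype cultures and 22162 to 24469 in *Nhe6*-knockout cultures. The part of these cells in the values of *Cdh2*, *Cdh10* and *Cdh18* was not tested.

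For *Cdh6* and *Cdh11* the genotypes overlapped. *Cdh6* had 1230, 1272 and 1469 normalized counts in *Nhe6*-knockout and 673, 563 and 1545 in wildtype replicates 1 to 3, with wildtype replicate 3 the highest of all. Its log2 fold change was 0.51 (SE 0.38, 95% interval -0.41 to 1.44, edgeR adjusted p = 0.667). *Cdh11* had 64971, 62446 and 116603 normalized counts in *Nhe6*-knockout and 47867, 67623 and 92665 in wildtype cultures, and replicate 3 was the highest in each genotype. Its log2 fold change was 0.23 (SE 0.37, 95% interval -0.66 to 1.12, edgeR adjusted p = 0.862).

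Among the catenins, *Ctnnb1* was lower in each *Nhe6*-knockout culture by a small amount, and the threshold was not passed. Beta-catenin serves both in the junction and as a coactivator in Wnt signalling. The normalized counts of *Ctnnb1* were 26057, 24658 and 25298 in *Nhe6*-knockout and 27498, 34406 and 30925 in wildtype replicates 1 to 3. The log2 fold change was -0.29 (SE 0.16, 95% interval -0.69 to 0.11, edgeR adjusted p = 0.559), a level of 0.819 times that of wildtype cultures. *Ctnna1* had 13885, 14517 and 18139 normalized counts in *Nhe6*-knockout and 12647, 22273 and 14863 in wildtype cultures (log2 fold change -0.10, 95% interval -0.71 to 0.51, edgeR adjusted p = 0.920). *Ctnnd1* had 11886, 11714 and 18013 in *Nhe6*-knockout and 8928, 15662 and 15802 in wildtype cultures (log2 fold change 0.04, 95% interval -0.66 to 0.75, edgeR adjusted p = 0.966). The genotypes overlapped for *Ctnna1* and *Ctnnd1*. Without wildtype replicate 2 the log2 fold change was 0.25 for *Cdh6*, 0.21 for *Cdh11*, -0.21 for *Ctnnb1*, 0.17 for *Ctnna1* and 0.16 for *Ctnnd1*, with edgeR adjusted p from 0.456 (*Ctnnb1*) to 0.826 (*Ctnnd1*). The sign of *Ctnna1* turned.

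**Figure D4:**
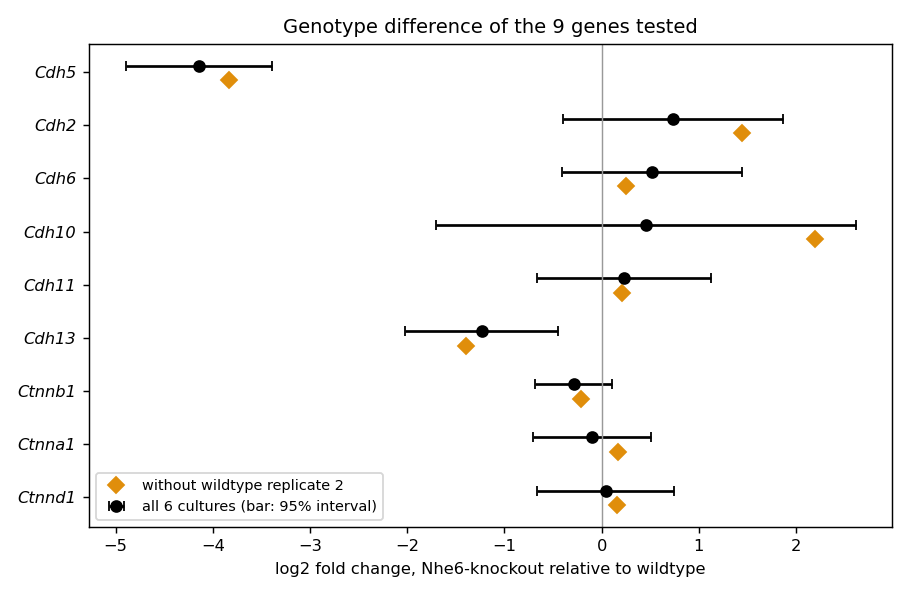
Log2 fold change of *Nhe6*-knockout relative to wildtype cultures (x axis) for the 9 members tested, with all 6 cultures (circles, bars are 95% intervals) and without wildtype replicate 2 (diamonds). The interval of *Cdh5* ends at -3.39, that of *Cdh13* at -0.45, and the other 7 intervals include 0, while *Cdh2* moves from 0.73 to 1.45 and *Cdh10* from 0.45 to 2.20 without wildtype replicate 2.

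Of 96 further genes of cadherin and catenin biology, 76 were tested and 0 passed the threshold in edgeR's test. An unadjusted p under 0.05 was found for 11 of the 76, against 11.8% of all genes tested, and 19 of the 76 had no overlap, against 19.9% of all genes tested. With DESeq2, 4 of them passed, *Afdn*, *Shc1*, *Apcdd1* and *Epas1*, where 4.69% of all genes were called. Without wildtype replicate 2 it was also 4, *Afdn*, *Actn1*, *Cdh18* and *Lef1*, where 2.88% of all genes were called.

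Of 16 other cadherins, 5 were tested, with a median log2 fold change of 0.26. *Cdh24* had 66.9, 64.1 and 81.4 normalized counts in *Nhe6*-knockout and 39.1, 19.6 and 33.2 in wildtype cultures (log2 fold change 1.21, SE 0.37, edgeR adjusted p = 0.280), without overlap. *Cdh1*, epithelial cadherin, had 63.7, 190 and 12.3 in *Nhe6*-knockout and 233, 1.03 and 167 in wildtype replicates 1 to 3. The summed level of 10 listed epithelial markers, *Cdh1* included and 8 of them tested, was 129 to 975 in *Nhe6*-knockout cultures. It was 523 and 1197 in wildtype replicates 3 and 1 and 112 in replicate 2, where *Krt8* and *Krt18* had 0 reads. The part of epithelial cells in the values of *Cdh1* was not tested.

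Of 8 other catenins and catenin relatives, 7 were tested, with a median log2 fold change of -0.17. *Jup* (plakoglobin), which can take the place of beta-catenin on a cadherin tail, had 829, 916 and 819 normalized counts in *Nhe6*-knockout and 1100, 2465 and 576 in wildtype cultures (log2 fold change -0.69, SE 0.49, edgeR adjusted p = 0.651). Without wildtype replicate 2 its value was 0.024 (SE 0.27, edgeR adjusted p = 0.972). *Ctnnbip1*, an inhibitor of the binding of beta-catenin to TCF factors, had 967, 977 and 1306 against 800, 650 and 686, without overlap (log2 fold change 0.61, SE 0.17, edgeR adjusted p = 0.250).

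All 14 actin linkers and nectins were tested, with a median log2 fold change of 0.10. *Afdn* (afadin), which ties nectins to actin, had 1812, 1842 and 1768 normalized counts in *Nhe6*-knockout and 2764, 5365 and 3454 in wildtype cultures, and was the gene of this list without overlap. Its log2 fold change was -1.09 (SE 0.25, edgeR adjusted p = 0.153), and without wildtype replicate 2 it was -0.79 (SE 0.13, edgeR adjusted p = 0.0420). *Vcl* (vinculin), which binds alpha-catenin under tension, had a log2 fold change of 0.08 (SE 0.30, edgeR adjusted p = 0.947). *Actn1*, an actin crosslinker, had 2698, 2740 and 2756 in *Nhe6*-knockout and 1037, 4607 and 1145 in wildtype cultures, with wildtype replicate 2 high as for *Cdh2*. The log2 fold change of *Actn1* was 0.27 (SE 0.58, edgeR adjusted p = 0.897) with all cultures and 1.32 (SE 0.11, edgeR adjusted p = 0.0138) without wildtype replicate 2.

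Of 13 partners of VE-cadherin, 10 were tested, with a median log2 fold change of 0.29. *Ptprb*, the endothelial phosphatase that binds VE-cadherin, was below the filter, with 2, 5 and 17 reads in *Nhe6*-knockout and 6, 114 and 2 in wildtype replicates 1 to 3. *Ptprj*, *Ptpn1* and *Shc1* had no overlap and were higher in *Nhe6*-knockout cultures, with log2 fold changes of 0.71, 0.53 and 0.38 (adjusted p = 0.502, 0.270 and 0.300 from edgeR). Among all genes tested, 10.3% had all *Nhe6*-knockout cultures higher. *Ptprj* was at 0.43 without wildtype replicate 2 (SE 0.27, edgeR adjusted p = 0.440). *Krit1*, a junctional scaffold, had a log2 fold change of 0.05 (SE 0.12, edgeR adjusted p = 0.905).

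All 11 genes of cadherin shedding and turnover were tested, with a median log2 fold change of -0.16. Against 19.9% of all genes tested, 6 of the 11 had no overlap. Among these, *Numb*, *Rab11a*, *Rab5a* and *March2* had lower values in each *Nhe6*-knockout culture, with log2 fold changes from -0.57 (*March2*, a ubiquitin ligase, edgeR adjusted p = 0.222) to -0.08 (*Numb*, an endocytic adaptor, adjusted p = 0.810). *Furin*, the protease that matures cadherin precursors, was higher in each, at 0.52 (SE 0.15, edgeR adjusted p = 0.262). *Adam10*, which sheds the outer part of VE-cadherin, had a log2 fold change of -0.24 (SE 0.24, edgeR adjusted p = 0.759) with all cultures and -0.07 (SE 0.22, edgeR adjusted p = 0.901) without wildtype replicate 2.

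The 8 genes of the complex that marks beta-catenin for degradation, *Apc*, *Axin1* and *Gsk3b* among them, were all tested and had log2 fold changes between -0.09 and 0.11, with a median of -0.018. Of 12 target genes of beta-catenin, 11 were tested, with a median of 0.22. *Axin2*, a general target, had 548, 566 and 700 normalized counts in *Nhe6*-knockout and 855, 799 and 988 in wildtype cultures, without overlap (log2 fold change -0.54, SE 0.16, edgeR adjusted p = 0.263). *Apcdd1* had no overlap either, with a log2 fold change of -0.85 (SE 0.22, edgeR adjusted p = 0.212). *Lef1*, a target that is itself a partner of beta-catenin, had 91.3, 79.9 and 121 in *Nhe6*-knockout and 267, 11.4 and 275 in wildtype cultures, with wildtype replicate 2 the lowest. Without that culture its log2 fold change was -1.48 (SE 0.24, edgeR adjusted p = 0.0414), in place of -0.92 (SE 0.95, adjusted p = 0.773).

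Of 14 transcription factors known to regulate cadherins, 10 were tested, with a median log2 fold change of 0.29. *Ets1* and *Epas1* (HIF-2 alpha), both described as activators of *Cdh5*, had higher values in each *Nhe6*-knockout culture, with log2 fold changes of 0.90 (SE 0.39, edgeR adjusted p = 0.437) and 1.06 (SE 0.27, adjusted p = 0.192). *Elf1* and *Twist1* had lower values in each, at -0.50 and -0.18 (adjusted p = 0.392 and 0.595 from edgeR). Among all genes tested, 10.3% had all *Nhe6*-knockout cultures higher and 9.57% had all of them lower. Without wildtype replicate 2, *Ets1* was at 0.55 and *Elf1* at -0.30 (adjusted p = 0.132 and 0.322 from edgeR). *Snai1*, *Snai2*, *Zeb1* and *Zeb2*, repressors of *Cdh1*, overlapped between the genotypes, with log2 fold changes from -0.05 (*Zeb1*) to 0.57 (*Snai2*). *Erg*, *Tal1*, *Sox17* and *Sox18* were below the filter.

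No tested gene within 1 Mb of the start of *Cdh5* on chromosome 8 passed the threshold. The table held 30 other genes there, of which 13 were tested and 0 passed in edgeR's test. All 13 start after *Cdh5*, and none of the genes there that start before it was tested. Of the 13, 10 had a log2 fold change below 0 and the others above. An unadjusted p under 0.05 was found for 2 of the 13, against 11.8% of all genes tested. No overlap was seen for 2 of the 13, *Tk2* (lower in *Nhe6*-knockout cultures) and *Cmtm3* (higher), against 19.9% of all genes tested. DESeq2, which gave no adjusted p for *Ces2e* and *Ces2g*, called 0 of the 13. The nearest tested gene, *Bean1*, starts 68.8 kb away and had 163, 193 and 199 normalized counts in *Nhe6*-knockout and 114, 188 and 175 in wildtype cultures (log2 fold change 0.22, SE 0.26, edgeR adjusted p = 0.808). *Tk2*, mitochondrial thymidine kinase, starts 125 kb away and had 823, 785 and 935 against 1181, 1089 and 1057, without overlap (log2 fold change -0.39, SE 0.13, edgeR adjusted p = 0.308). *Ces2g*, a carboxylesterase, had 4608 normalized counts in wildtype replicate 2 and 1.07 to 15.8 in the other 5 cultures. Its log2 fold change of -7.11 (SE 2.73, edgeR adjusted p = 0.386) became 0.74 without that culture. *Cdh11*, the nearest cadherin of the set, lies on chromosome 8 from 102632095 to 102785642, and its start is 1.47 Mb before that of *Cdh5*. Of the other members, *Cdh6* (13028701 to 13173675) and *Cdh10* (18818947 to 19014236) lie on chromosome 15, *Cdh4* (179442431 to 179899373) and *Ctnnd1* (84600071 to 84650765) on chromosome 2, *Ctnna1* on chromosome 18 (35118859 to 35254779) and *Ctnnb1* on chromosome 9 (120929216 to 120960507).

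**Figure D5:**
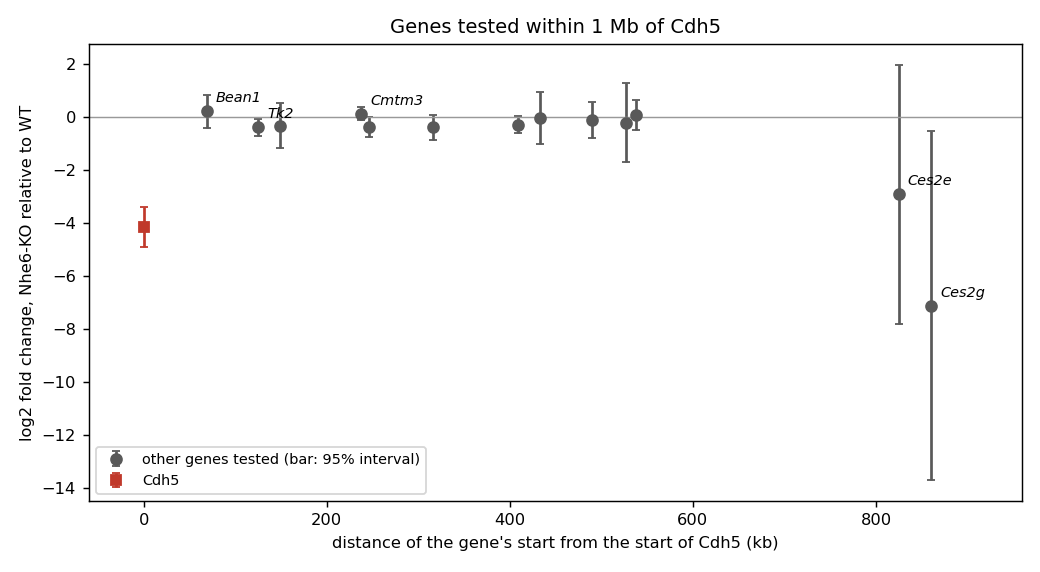
Log2 fold change of *Nhe6*-knockout relative to wildtype cultures (y axis, bars are 95% intervals) against the distance of a gene's start from that of *Cdh5* in kb (x axis), for *Cdh5* (red square) and 13 tested genes within 1 Mb. *Cdh5* lies at -4.15, *Bean1* at 0.22 and *Tk2* at -0.39, and the wide bars of *Ces2e* and *Ces2g* belong to genes with most of their counts in wildtype replicate 2.

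The genes most like *Cdh5* across cultures were *Smim14*, *Fgf11*, *Hprt*, *Tada2b* and *Ndnf*. Likeness was measured as Pearson's r of log2 normalized counts over the 6 cultures, among 11126 other genes averaging 100 or more normalized counts, and r was 0.998, 0.995, 0.994, 0.994 and 0.994. The points share the separation of the genotypes, and *Nhe6*-knockout replicates 1 and 2 are close to each other, so these values describe the 6 cultures only. These genes were chosen because they follow *Cdh5* in the same cultures. Their lower values in *Nhe6*-knockout cultures and their order of cultures therefore come largely from the choice. *Hprt*, a purine salvage enzyme, had 12.7, 17.7 and 14.2 normalized counts in *Nhe6*-knockout and 1834, 2984 and 2331 in wildtype cultures (log2 fold change -7.31, SE 0.28, edgeR adjusted p = 0.00138). *Ndnf*, a secreted neurotrophic factor, had 174, 164 and 128 normalized counts in *Nhe6*-knockout and 464, 605 and 550 in wildtype cultures, with wildtype replicate 2 the highest as for *Cdh5* (log2 fold change -1.80, SE 0.20, edgeR adjusted p = 0.0539). Without that culture it was -1.71 (SE 0.21, edgeR adjusted p = 0.0239). *Fgf11* had 126, 125 and 122 in *Nhe6*-knockout and 291, 331 and 280 in wildtype cultures (log2 fold change -1.27, SE 0.18, edgeR adjusted p = 0.0800). Without wildtype replicate 2 the log2 fold change of *Fgf11* was -1.21 (SE 0.18, edgeR adjusted p = 0.0346). *Smim14*, a small membrane protein, had 2934, 2938 and 2881 against 4161, 4744 and 4323 (log2 fold change -0.60, SE 0.11, edgeR adjusted p = 0.106). *Tada2b* had 787, 801 and 779 against 885, 920 and 889 (log2 fold change -0.19, SE 0.11, edgeR adjusted p = 0.569). A high r thus did not mean a fall as large as that of *Cdh5*.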

How the data were processed

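The authors deposited raw counts of reads per gene symbol. The submitters' processing notes name bcl2fastq 2.20.0.422, STAR 2.7.7a, HTSeq 0.13.5 and DESeq2 1.26.0 and the build mm10 (GRCm38), and the annotation is not given in the sources used here. The last 5 lines are htseq-count's own summary, 22.2% of the table's total, and were removed. Reads aligned at several sites stand in those lines and in no gene. Columns were matched to cultures by genotype and replicate number, and 0 columns stayed unmapped.

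Genes were filtered with filterByExpr (minimum count 10), normalized with TMM (factors 0.976 to 1.03) and fitted in 1 quasi-likelihood model of all 6 libraries with genotype as the sole term (edgeR 4.0.16, R 4.3.3). The standard error is the fold change divided by the square root of F, and intervals use the test's t distribution. Positions and exon lengths came from GENCODE M21 on GRCm38. Alternatives were other normalizations and filters, DESeq2 1.42.0, limma-voom (limma 3.58.1), a replicate block, each culture left out, and the sum of *Nhe6*-knockout replicates 1 and 2, which was chosen after seeing the data. Simulated counts tested the scripts. Lists covered other cadherins, other catenins, linkers and nectins, VE-cadherin partners, turnover, the destruction complex, beta-catenin targets, transcription factors, and endothelial, fibroblast, mural, epithelial, macrophage, melanocyte and glia markers. The text may name members, list genes, genes starting within 1 Mb of *Cdh5* and the 5 genes most correlated with it. Members and lists were chosen with earlier results of these data known. The level of the disrupted gene is not reported here.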

Additional observations from a re-analysis of the deposited data

How the results depend on the processing

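Alternatives changed how many genes passed the threshold. The log2 fold change of *Cdh5* kept its sign in each of 14, while its adjusted p was under 0.05 in 8 of them. The cause of these changes was not tested. In place of 9 genes, 21 passed without a filter beyond 1 count, 21 with at least 10 counts in every library, 627 with DESeq2, 0 to 395 with 1 culture left out (395 without wildtype replicate 2) and 1 with *Nhe6*-knockout replicates 1 and 2 summed. In place of 1 member, 2 passed with DESeq2, 0 to 2 with 1 culture left out and 0 with the sum. In place of 0 further genes of cadherin biology, 4 passed with DESeq2 and 0 to 4 with 1 culture left out. The log2 fold change of *Cdh5* was -4.37 to -3.83 with 1 culture left out and -4.20 with the sum.

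Log2 fold changes near 0 changed sign when 1 culture was left out: *Cdh10* ran from -0.033 (without wildtype replicate 3) to 2.20, *Cdh11* from -0.13 (without *Nhe6*-knockout replicate 3) to 0.49, *Ctnna1* from -0.26 to 0.17 (without wildtype replicate 2) and *Ctnnd1* from -0.20 (without *Nhe6*-knockout replicate 3, and -0.19 without wildtype replicate 1) to 0.17. No adjusted p of these was under 0.05. With the longest transcript as the length, 12 of 20 levels per kilobase moved by more than 1 SD, and the order stayed.

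The replicate numbers were not shown to pair the cultures, since the correlations of same-numbered deviations were 0.26, -0.12 and 0.18 and *Nhe6*-knockout replicate 2 correlated best with wildtype replicate 1. With the replicate block, 2 genes and 0 members passed, and *Cdh5* had a log2 fold change of -4.09 (adjusted p = 0.0748 from edgeR).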

Other observations

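The sum of the 7 cadherins per kilobase of exon, divided by the sum of the 3 catenins, was 0.928, 0.915 and 1.40 in *Nhe6*-knockout and 0.748, 0.797 and 1.12 in wildtype replicates 1 to 3. Replicate 3 was the highest in each genotype, as it was for *Cdh11*.

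Markers of other cell types were present at lower levels. The sum of 12 macrophage markers was 1446 to 3721 normalized counts in *Nhe6*-knockout cultures, 1881 to 3579 in wildtype replicates 1 and 3 and 96.0 in wildtype replicate 2. The sum of 10 melanocyte markers was 405 to 711 in *Nhe6*-knockout and 288 to 1207 in wildtype cultures, and *Dct* had 166 reads in wildtype replicate 3 and at most 2 in the other 5 cultures. The sum of 8 glia markers was 426 to 826 in *Nhe6*-knockout and 578 to 804 in wildtype cultures. None of the 10, 4 and 5 genes of these lists that were tested passed the threshold in edgeR's test or with DESeq2, and 0 had an unadjusted p under 0.05.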
